A study of Mus musculus with 12 samples.

Results

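The 9 genes described here carry out, feed or switch on the urea cycle of the liver, and were taken by symbol from a table of 41128 mouse genes: Cps1, Otc, Ass1, Asl, Arg1, Nags, Slc25a15, Gls2 and Glud1. All 9 were found, and all 9 passed the filter on low counts in both experiments. Their transcripts were compared across 12 RNA-seq libraries in 5 groups. Of these, 3 libraries came from hepatocytes of untreated mice and 3 from hepatocytes labelled peritumoral, taken from livers that carried tumours. Both hepatocyte groups had the genotype Lats1tm1.1Jfm/RjoJ; Lats2tm1.1Jfm/RjoJ, that is, conditional alleles of the Hippo pathway kinases Lats1 and Lats2, and were titled wild type; the sources used here do not say whether a Cre recombinase was present. The tumour-bearing mice had received plasmids for the SB11 transposase (1 µg), myc-NICD (20 µg), an active form of Notch, and myr-ha-Akt (4 µg), an active form of the kinase Akt, by hydrodynamic injection at 8 weeks of age, and the tumours then grew for 8 weeks. Since all labels state 8 weeks of age, the peritumoral group may be older than its label.

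The other 6 libraries came from CD-1 IGS mice: 2 controls, 2 taken 24 h and 2 taken 48 h after 1 intraperitoneal injection of thioacetamide (TAA), a toxin that hepatocytes around the central vein turn into its harmful form. The labels call these hepatocytes selected on a Percoll gradient and the study's design text calls them livers; they are called livers here. The 2 experiments differ in stock, so levels were tested only within each. The labels do not state that replicates were separate animals. The p-values therefore rest on the spread among libraries alone, which may be technical. The study's title concerns the activation of YAP and TAZ, the effectors of the Hippo pathway, in tissue next to liver tumours.

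As background, hepatocytes turn toxic ammonia into urea. In mitochondria, Gls2 frees ammonia from glutamine and Glud1 frees it from glutamate. Nags makes N-acetylglutamate, the obligate activator of Cps1, which joins ammonia and bicarbonate into carbamoyl phosphate. Otc joins carbamoyl phosphate to ornithine, which Slc25a15 carries into the mitochondrion in exchange for citrulline. In the cytosol, Ass1 and Asl turn citrulline and aspartate into arginine and fumarate, and Arg1 splits arginine into urea and ornithine. Most of this work is done by hepatocytes near the portal vein, while a thin ring of cells around the central vein captures the ammonia that escapes, through glutamine synthetase, Glul.

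Hepatocyte libraries held 16228747 to 18522324 counts each, and liver libraries 9640845 to 13692235. A few libraries stood apart. Peritumoral replicate 2 held 9770 counts of Xist, the RNA of the inactive X chromosome, and 0 of the Y-linked gene Ddx3y, while the other 5 hepatocyte libraries held 0 to 3 counts of Xist and 968 to 1342 of Ddx3y. All 6 livers had the Xist pattern, with 2516 counts or more and 0 of Ddx3y. Peritumoral replicate 2 also had the highest summed level of 10 bile duct markers, 10495 RPM (counts scaled to the library total), against 801 and 1150 in the other 2 peritumoral libraries and 52.3 to 74.5 in untreated hepatocytes. Untreated replicate 3 had the highest summed level of 12 periportal markers, 11325 RPM against 4852 and 5681 in the other 2. The defining hepatocyte markers were present in every library: 15 genes led by Alb summed to 97751 RPM or more, with none at 0.

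The 9 genes made up 1.07% to 1.27% of all counts in untreated hepatocytes and 0.771% to 0.830% in peritumoral ones, with no overlap. In control livers they made up 1.18% and 1.28%, at 24 h 1.03% and 1.11%, and at 48 h 1.10% and 1.42%. Levels below are CPM, counts scaled to the library total and by TMM factors, which make the bulk of genes comparable between libraries. To compare one gene with another, counts were also divided by the gene's merged exon length (RPKM). In control livers Cps1 led at 1362 ± 191 RPKM (SD, n = 2), followed by Ass1 at 1099 ± 38.2, Arg1 at 621 ± 1.62, Glud1 at 492 ± 25.4, Gls2 at 194 ± 19.8, Otc at 167 ± 2.33, Asl at 128 ± 0.774, Slc25a15 at 96.6 ± 5.41 and Nags at 35.95 ± 2.45. Each neighbour in that order was separate from the next in both libraries. In untreated hepatocytes Cps1 (1144 ± 218 RPKM, n = 3) and Arg1 (921 ± 46.1) overlapped at the top, Ass1 and Glud1 overlapped below them, and Otc, Slc25a15, Asl and Gls2 formed an overlapping group between 38.7 and 171 RPKM. Nags was last in every group but the livers at 24 h and 48 h, where Otc was; at 24 h Otc, Nags and Asl overlapped.

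**Figure D1:**
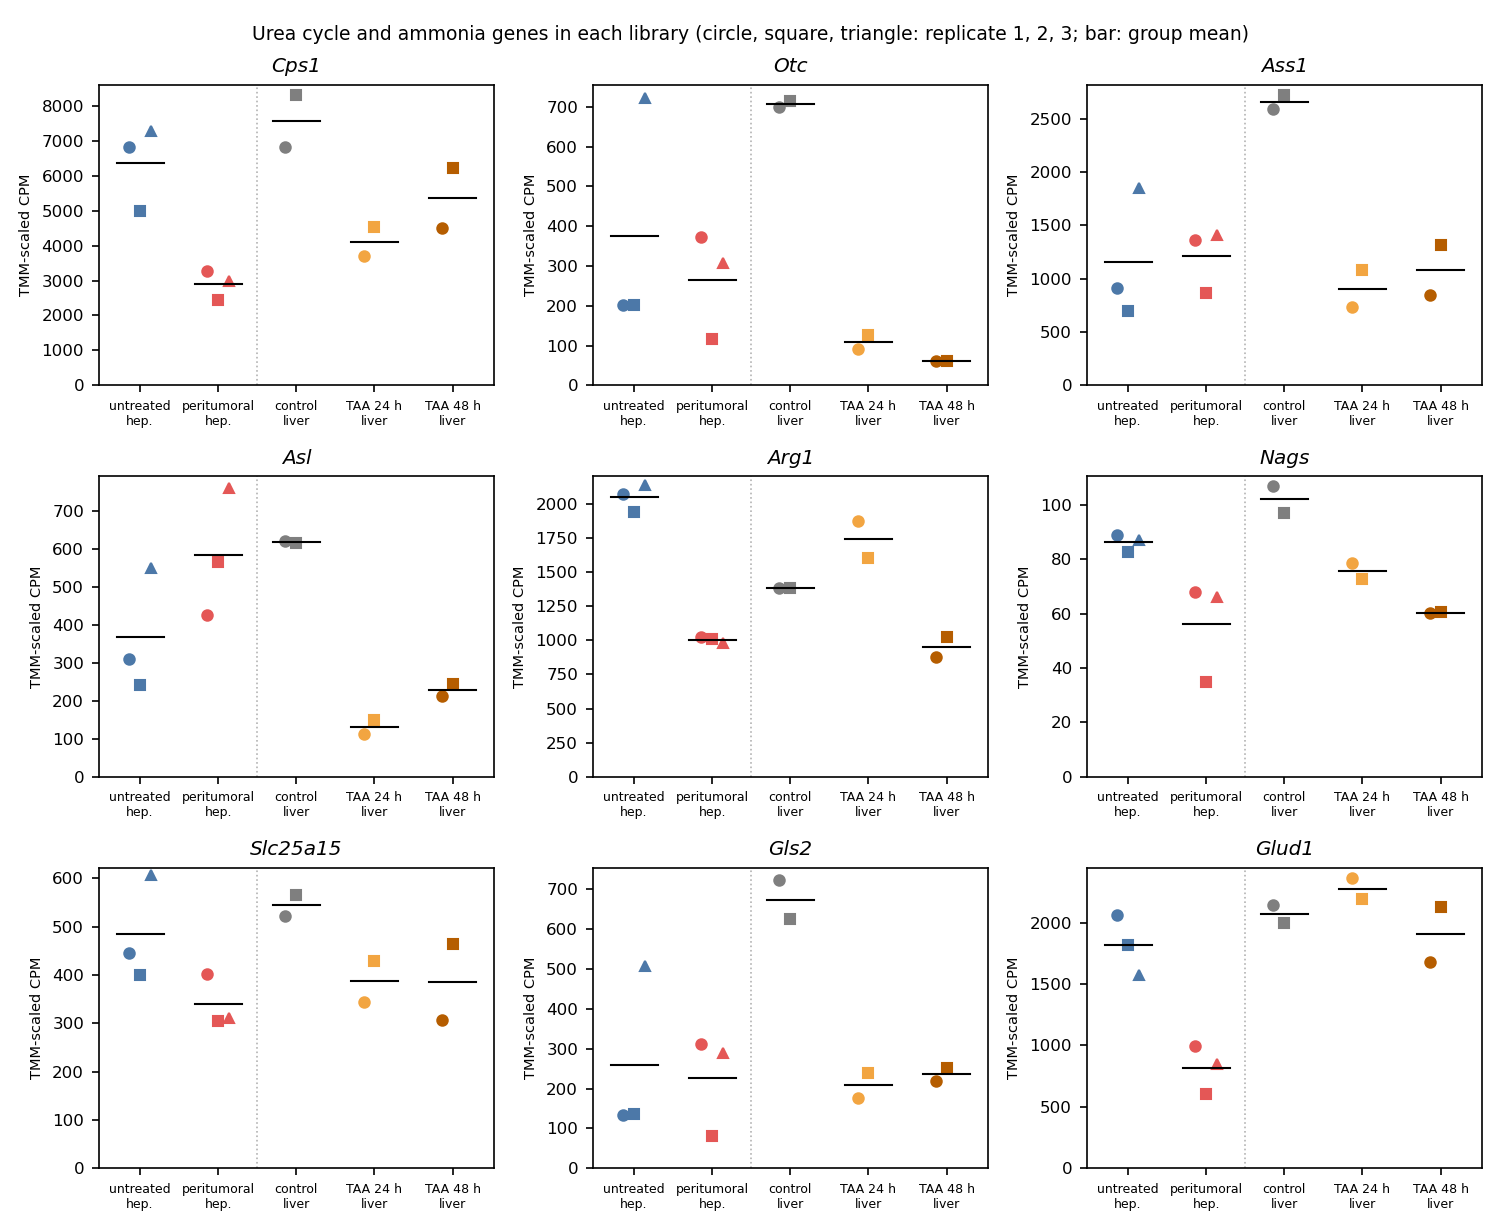
TMM-scaled CPM of each gene (vertical axes, from 0) in the 5 groups (horizontal axes); points are libraries, with circles, squares and triangles for replicates 1, 2 and 3, bars are group means, and the dotted line separates the hepatocyte and liver experiments. Otc stands at 699.9 and 714 in control livers and at 60.1 and 61.7 at 48 h, while Arg1 and Glud1 in peritumoral hepatocytes lie below all untreated libraries.

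In livers 24 h after TAA, 5 of the 9 transcripts, those of Otc, Asl, Gls2, Ass1 and Nags, were lower than in controls and none was higher. Cps1, Arg1, Slc25a15 and Glud1 did not pass the test. When libraries were scaled by their totals, or to hepatocyte transcripts, 4 were lower and 2, Arg1 and Glud1, were higher. Of all 13497 genes tested, 41.8% passed, 20.5% lower and 21.3% higher. The median of the 9 was a log2 fold change of -0.88, against 0.02 over all genes tested. In all 9 genes the groups did not overlap, which was so for 74.1% of all genes. Each gene was tested two-sided with edgeR's quasi-likelihood F test, with p-values adjusted over all genes by Benjamini and Hochberg's method and a threshold of 0.05. Log2 fold changes are given ± SE. In bulk samples like these, fewer cells of a type and less RNA per cell cannot be told apart.

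Of the 9 genes Otc fell most. Control livers held 699.9 and 714 CPM of it, livers at 24 h 91.9 and 126, and livers at 48 h 61.7 and 60.1. All treated libraries lay far below both controls, and both libraries at 48 h lay below both at 24 h. The log2 fold change was -2.70 ± 0.17 at 24 h (edgeR adjusted p = 0.000369), a 6.50-fold lower level, and -3.54 ± 0.18 at 48 h (adjusted p = 0.000142), 11.6-fold lower. Otc passed the test under all 19 alternative settings at both times.

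The same direction was seen in the 2 cytosolic steps that follow. Ass1, which makes argininosuccinate, stood at 2587 and 2718 CPM in controls, 731 and 1078 at 24 h, and 844 and 1316 at 48 h. Every treated library held less than 1320 CPM of Ass1 and every control more than 2580. Its log2 fold change was -1.55 ± 0.29 at 24 h (edgeR adjusted p = 0.00689) and -1.30 ± 0.29 at 48 h (adjusted p = 0.00993). Of the 19 alternative settings, 1 ended the call of Ass1 at 24 h. At 48 h 4 did, among them the fit without replicate 1 of that time. Asl, which splits argininosuccinate, stood at 621 and 616 CPM in controls, 113 and 149.9 at 24 h, and 212 and 244 at 48 h. Its lowest levels were at 24 h, and the 3 liver groups did not overlap. The log2 fold change was -2.24 ± 0.17 at 24 h (edgeR adjusted p = 0.000575) and -1.44 ± 0.17 at 48 h (adjusted p = 0.000959).

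Cps1, the entry enzyme, moved less. It stood at 6819 and 8317 CPM in controls, 3698 and 4519 at 24 h, and 4493 and 6214 at 48 h. All 4 treated libraries were below both controls, with a log2 fold change of -0.88 ± 0.31 at 24 h (edgeR adjusted p = 0.0603) and -0.50 ± 0.31 at 48 h (adjusted p = 0.223), neither of which passed. At 24 h 6 of the 19 alternatives called Cps1 lower, with adjusted p from 0.000520 with DESeq2 to 0.0487 with limma. In simulated data for this comparison 16.1% of DESeq2's calls were false, against 9.5% of edgeR's. Nags, whose product activates Cps1, stood at 107 and 97.1 CPM in controls, 78.5 and 72.6 at 24 h, and 60.1 and 60.4 at 48 h. The 3 groups of Nags values did not overlap. Its log2 fold change was -0.43 ± 0.11 at 24 h (edgeR adjusted p = 0.0228), a call lost without any 1 of 5 of the 6 livers (adjusted p 0.0521 to 0.102), and -0.76 ± 0.11 at 48 h (adjusted p = 0.00221). The call at 48 h was lost with all 12 libraries in 1 fit and with library totals alone, where the value was -0.05, and with hepatocyte scaling it turned to 0.34. Of the exon length of Nags, 15.6% overlaps the opposite-strand gene Gm11586, and the sources used here do not give the strand setting of the counting.

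Slc25a15, the ornithine and citrulline carrier, stood at 522 and 566 CPM in controls, 345 and 429 at 24 h, and 306 and 463 at 48 h. Both treated groups lay below both controls, and its log2 fold changes of -0.49 ± 0.22 and -0.50 ± 0.22 did not pass (edgeR adjusted p = 0.114 and 0.102). Without replicate 2 of the 48 h livers the change at 48 h was -0.83 and passed (edgeR adjusted p = 0.0318).

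Arg1, the last step, stood at 1386 and 1381 CPM in controls, 1876 and 1605 at 24 h, and 878 and 1023 at 48 h. Both libraries at 24 h were above both controls, and both at 48 h were below them. The log2 fold change of 0.33 ± 0.18 at 24 h did not pass (edgeR adjusted p = 0.170), but passed as higher with library totals alone (0.85, adjusted p = 0.00685) and with hepatocyte scaling (0.89, adjusted p = 0.00537). That of -0.54 ± 0.18 at 48 h did pass (edgeR adjusted p = 0.0408). The call at 48 h was lost without any 1 of the 4 libraries compared (adjusted p 0.0817 to 0.207), and the value turned to 0.55 when libraries were scaled to hepatocyte transcripts and to 0.17 when scaled by library totals.

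The 2 enzymes that release ammonia inside mitochondria parted. Gls2, the liver glutaminase, stood at 723 and 626 CPM in controls, 177 and 239.9 at 24 h, and 219 and 253 at 48 h. Treated and control livers were far apart, with a log2 fold change of -1.69 ± 0.19 at 24 h (edgeR adjusted p = 0.00114) and -1.52 ± 0.19 at 48 h (adjusted p = 0.00108). Of the 19 alternative settings, 1 ended the call of Gls2 at 24 h and 2 that at 48 h. Glud1, glutamate dehydrogenase, stood at 2146 and 1994 CPM in controls, 2361 and 2192 at 24 h, and 1681 and 2129 at 48 h. Its groups lay close together and overlapped at 48 h, and its log2 fold changes of 0.14 ± 0.20 and -0.12 ± 0.20 did not pass (edgeR adjusted p = 0.613 and 0.654). It passed as higher with library totals alone (0.65 and 0.59, edgeR adjusted p = 0.0282 and 0.0344) and with hepatocyte scaling (0.70 and 0.97, adjusted p = 0.0222 and 0.00328).

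At 48 h after TAA, 6 of the 9 genes were lower than in controls and none was higher, while 48.9% of all genes passed, 23.9% lower and 25% higher. The 6 were Otc, Ass1, Asl, Arg1, Nags and Gls2. The median of the 9 was -0.76 on the log2 scale, against -0.03 over all genes tested, and it turned to 0.34 when libraries were scaled to hepatocyte transcripts, which moved the median of all genes to 1.07. Under that scaling only Otc was lower at 48 h and 3 were higher, Glud1 by 0.97, Slc25a15 by 0.59 and Arg1 by 0.55 (edgeR adjusted p = 0.00328, 0.0256 and 0.0233), while Asl, Gls2, Nags and Ass1 did not pass (adjusted p 0.0570 to 0.469). With library totals alone 3 were lower at 48 h (Otc, Asl and Gls2) and 1, Glud1, was higher. Under hepatocyte scaling the differences from control of Otc at 24 h and 48 h and of Asl, Ass1 and Gls2 at 24 h still passed the test. The groups did not overlap in 8 of the 9 genes, all but Glud1, against 76.4% of all genes. The comparisons at 24 h and 48 h share the same 2 control livers, so their values are set side by side and are not independent.

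**Figure D2:**
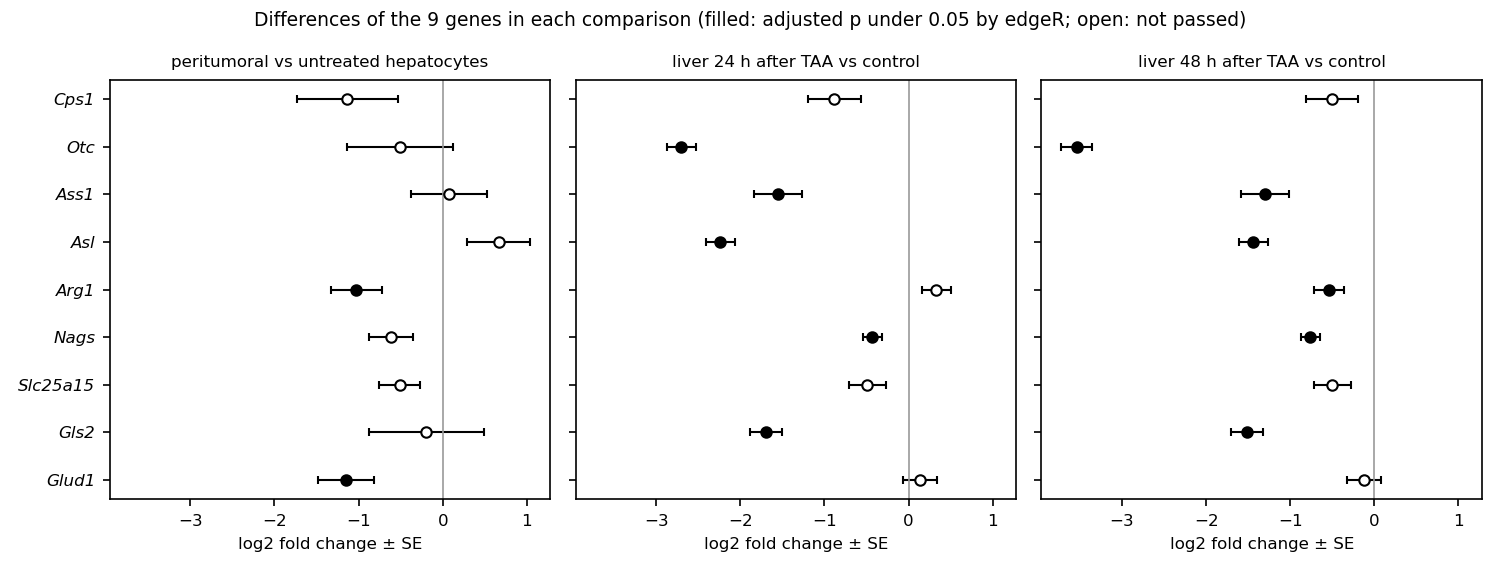
Log2 fold changes of the 9 genes (points) with their standard errors (bars) in peritumoral against untreated hepatocytes and in livers 24 h and 48 h after TAA against control livers; filled points passed edgeR's test at an adjusted p under 0.05. Otc has the lowest value at both times after TAA, -2.70 and -3.54, and in peritumoral hepatocytes only Arg1 and Glud1 are filled.

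Tested against each other, the 2 times after TAA differed in 3 of the 9 genes, while 7.33% of all genes did, 4.96% higher and 2.36% lower at 48 h. Otc was lower at 48 h than at 24 h by a log2 fold change of -0.84 ± 0.17 (edgeR adjusted p = 0.0366) and Arg1 by -0.87 ± 0.18 (adjusted p = 0.0386), while Asl was higher by 0.80 ± 0.17 (adjusted p = 0.0416). The other 6 did not pass, among them Nags at -0.33 ± 0.11 (edgeR adjusted p = 0.1251) and Cps1 at 0.38 ± 0.31 (adjusted p = 0.477). The 2 times did not overlap in 5 of the 9 genes, against 61.9% of all genes. All 3 calls were lost without any 1 of the 4 libraries at these times, with adjusted p from 0.0931 to 0.220, and that of Asl also without either control, though no library left out changed their direction.

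Ratios of 2 genes within a library do not depend on how libraries are scaled. Otc amounted to 13.4% and 11.2% of Cps1 by RPKM in control livers, to 3.26% and 3.64% at 24 h, and to 1.80% and 1.27% at 48 h. The next step in the mitochondrion thus stood far lower relative to its predecessor in every treated liver, and lower at 48 h than at 24 h in all 4. Gls2 amounted to 40.8% and 38.0% of Glud1 in controls, 9.09% and 13.3% at 24 h, and 15.8% and 14.4% at 48 h. Asl amounted to 11.99% and 11.3% of Ass1 in controls, 7.70% and 6.95% at 24 h, and 12.6% and 9.28% at 48 h. Only the 24 h livers were separate from the controls in this ratio. Arg1 amounted to 50.7% and 41.4% of Cps1 in controls, 127% and 88.6% at 24 h, and 48.7% and 41.1% at 48 h, so that Arg1 exceeded Cps1 in 1 library at 24 h.

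**Figure D3:**
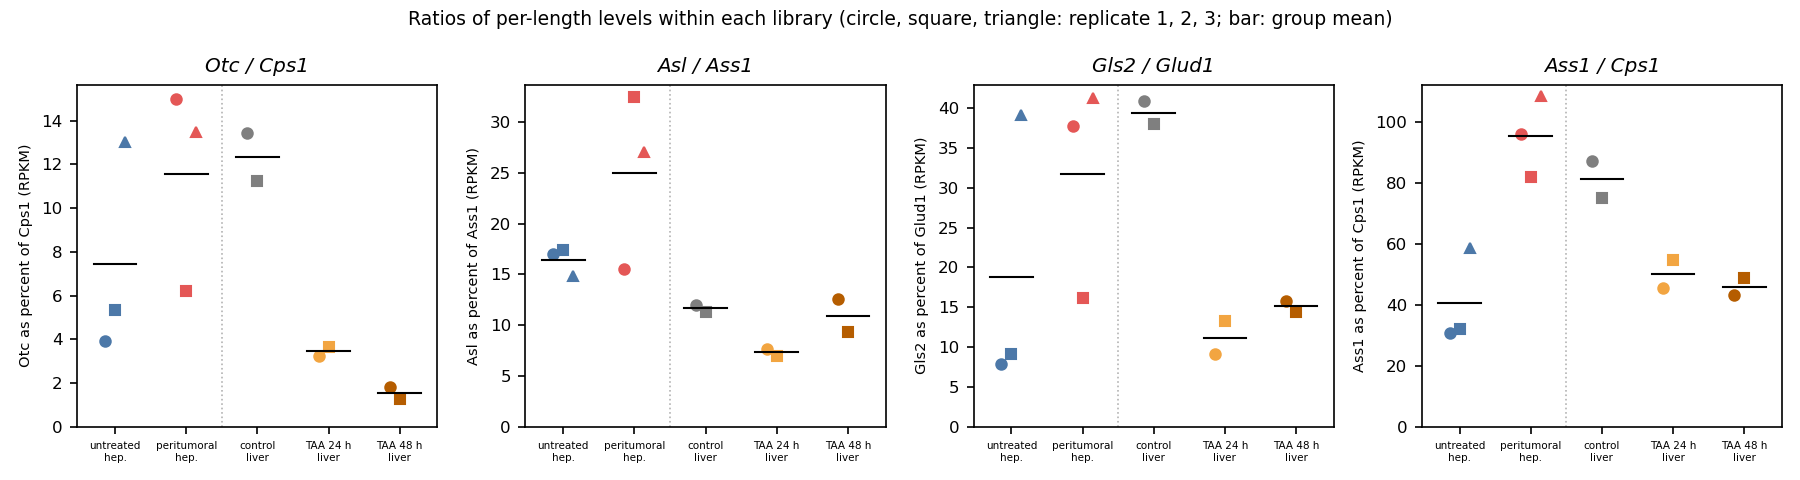
Ratio of the per-length levels (RPKM) of 2 genes within each library, in percent, for Otc to Cps1, Asl to Ass1, Gls2 to Glud1 and Ass1 to Cps1 (vertical axes, from 0); points are libraries, with circles, squares and triangles for replicates 1, 2 and 3, and bars are group means. Otc to Cps1 is 11.2% or more in control livers and 3.64% or less in treated ones, and Ass1 to Cps1 is 81.9% or more in peritumoral and 58.5% or less in untreated hepatocytes.

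Levels of markers of liver zones and of other cell types also differed between these livers. The summed level of 12 periportal markers was 7350 and 7436 RPM in controls, 3279 and 4045 at 24 h, and 4398 and 5217 at 48 h. That of 12 pericentral markers was 4041 and 6107 RPM in controls, 766 to 954 at 24 h and 504 to 572 at 48 h, and that of 10 genes of the early stress response was 2321 to 2583, 4013 to 4090 and 3111 to 4435 RPM. No marker of these 3 lists was at 0 in any liver, none is among the 9 genes, and the pericentral list holds Glul and Oat. The marker sums in RPM are scaled to library totals alone, without TMM factors. On the TMM scale the 10 stress genes had a median log2 fold change of 0.48 at 24 h and -0.18 at 48 h. By edgeR's test 3 of these 10 were higher and 2 lower at 24 h, and 1 higher and none lower at 48 h. The summed level of 14 macrophage markers was 85.4 and 196 RPM in controls, 533 and 702 at 24 h, and 1310 and 2065 at 48 h, with none at 0 in any liver. That of 12 stellate cell and matrix markers was 122 to 208 RPM in controls, 698 to 747 at 24 h, and 1962 to 2609 at 48 h, and that of 10 cell cycle genes was 18.8 to 20.5, 105 to 198 and 543 to 921 RPM. The 15 hepatocyte reference transcripts summed to 214116 RPM or more in controls, 208811 or more at 24 h, and 161358 to 170176 at 48 h. On the TMM scale the median log2 fold change of these 15 was -0.32 at 24 h and -0.91 at 48 h, against 0.02 and -0.03 over all genes. By edgeR's test 5 were lower and 1 higher at 24 h, and 6 lower and none higher at 48 h. Alb stood at 203875 and 202314 CPM in controls, 96552 and 111033 at 24 h, and 78138 and 79728 at 48 h. A ratio to these transcripts rises where they fall. The part of these changes in the values of the 9 genes was not tested. Per 1000 hepatocyte reference counts, Otc was 2.47 and 2.43 in controls, 0.473 and 0.639 at 24 h, and 0.481 and 0.426 at 48 h, so it stood lower in treated livers on this scale too. On the same scale Glud1 and Arg1 stood above both controls at both times, and Cps1 below them at 24 h and above them at 48 h. Glud1 was 7.59 and 6.79 in controls, 12.2 and 11.1 at 24 h and 13.1 and 15.1 at 48 h, and Arg1 was 4.90 and 4.70, then 9.66 and 8.16, then 6.84 and 7.26. Cps1 was 24.1 and 28.3 in controls, 19.0 and 23.0 at 24 h and 35.0 and 44.1 at 48 h.

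The upstream sequences of 3 of the genes are shown because they span the range of responses in liver: Otc, the largest fall, Nags, a smaller one, and Glud1, which did not pass at either time. They are the 250 bases before the RefSeq transcript start on GRCm38.p6, and 5 of the 9 genes were found in the promoter table used (Otc, Nags, Glud1, Ass1 and Slc25a15). The start sites are those of the annotation and were not measured here. Capitals mark matches, on either strand, to 9 motifs searched by their letters. These were the TATA box (TATAAA), the CCAAT box (CCAAT), the C/EBP palindrome (TTGCGCAA), a relaxed C/EBP site (TTGCNNAA), a partial glucocorticoid receptor site (TGTTCT), the core of an HNF4 site (CAAAGTCCA), a partial nuclear receptor site (AGGTCA), a partial cAMP response element (TGACG) and the SP1 box (GGGCGG). Every C/EBP palindrome also matches the relaxed site.
Otc, chrX:10252055-10252304, plus strand: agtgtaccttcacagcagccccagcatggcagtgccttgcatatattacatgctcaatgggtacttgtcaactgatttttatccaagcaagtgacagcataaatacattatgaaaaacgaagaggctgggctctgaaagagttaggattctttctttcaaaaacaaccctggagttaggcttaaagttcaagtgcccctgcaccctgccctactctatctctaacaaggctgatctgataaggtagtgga
Nags, chr11:102145263-102145512, plus strand: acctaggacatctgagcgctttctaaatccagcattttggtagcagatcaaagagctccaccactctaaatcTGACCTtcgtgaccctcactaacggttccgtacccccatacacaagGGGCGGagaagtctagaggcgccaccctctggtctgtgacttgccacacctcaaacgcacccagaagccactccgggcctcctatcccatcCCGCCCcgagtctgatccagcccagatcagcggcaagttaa
Glud1, chr14:34310477-34310726, plus strand: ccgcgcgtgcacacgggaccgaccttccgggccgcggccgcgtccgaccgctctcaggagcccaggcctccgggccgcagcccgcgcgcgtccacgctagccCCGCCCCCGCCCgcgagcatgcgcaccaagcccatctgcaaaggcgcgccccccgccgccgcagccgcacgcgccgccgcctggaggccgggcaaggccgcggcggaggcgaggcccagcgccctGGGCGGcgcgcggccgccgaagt
The Otc window had a GC content of 43.6% and held none of the 9 motifs. The Nags window, with a GC content of 55.6%, held AGGTCA 178 bases and GGGCGG 132 and 41 bases before the start. The Glud1 window, with a GC content of 82%, held GGGCGG at 148, 142 and 23 bases before the start. These windows do not form a general order. That of Ass1, not shown, had a GC content of 75.6% and held GGGCGG 63 bases before the start. Yet Ass1 changed by -1.55 at 24 h on the log2 scale, against -0.43 for Nags. The windows of Slc25a15, not shown, had a GC content of 57.6% and 80.4% and held GGGCGG too. A link between windows and changes was not tested. Of 32851 promoter windows of the same length, 14% held AGGTCA and 32.7% held GGGCGG; the TATA box was in 12.4%, the CCAAT box in 33.8%, the C/EBP palindrome in 0.164%, the relaxed C/EBP site in 9.56%, the partial glucocorticoid receptor site in 16.1%, the HNF4 core in 0.384% and the partial cAMP element in 17.8%. A match of letters describes the window only.

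In peritumoral hepatocytes, Arg1 and Glud1 were lower than in untreated hepatocytes and none of the 9 genes was higher, while 29.2% of all 13442 genes tested passed, 10.2% lower and 19% higher. The median of the 9 was -0.51 on the log2 scale, against -0.02 over all genes. Groups did not overlap in 4 of the 9 (Cps1, Arg1, Nags and Glud1), a share below the 49.5% of all genes. Both calls were lost without any 1 of the 6 libraries, so that none of the 9 passed in any such fit.

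Arg1 stood at 1026, 1006 and 983 CPM in the 3 peritumoral libraries and at 2074, 1939 and 2140 in the 3 untreated ones. The libraries of each group lay close together and the groups were far apart, with a log2 fold change of -1.03 ± 0.30 (edgeR adjusted p = 0.0444). Leaving out any 1 library left it between -1.09 and -0.99, with adjusted p from 0.0534 to 0.186. Glud1 stood at 999, 607 and 852 CPM against 2062, 1820 and 1572. The highest peritumoral library lay below the lowest untreated one, with a log2 fold change of -1.15 ± 0.33 (edgeR adjusted p = 0.0425), which ran from -1.33 to -0.94 with adjusted p from 0.0514 to 0.189 when any 1 library was left out.

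Cps1 stood at 3273, 2442 and 2980 CPM against 6816, 4978 and 7267. All peritumoral libraries were below all untreated ones. The log2 fold change of -1.13 ± 0.60, close to that of Glud1 but with a wider error, did not pass (edgeR adjusted p = 0.199). DESeq2 called it lower (adjusted p = 2.94e-05). In simulated data for this comparison 33.5% of DESeq2's calls were false, against 5.86% of edgeR's, and edgeR found 3% of 2-fold changes. Nags stood at 67.9, 34.8 and 66.2 CPM against 89.0, 82.7 and 87.1. The groups did not overlap and replicate 2 was the lowest, with a log2 fold change of -0.62 ± 0.26 that did not pass (edgeR adjusted p = 0.122). Slc25a15 stood at 402, 305 and 311 CPM against 445, 400.3 and 607, and its groups touched, with a log2 fold change of -0.51 ± 0.24 (edgeR adjusted p = 0.154).

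The remaining 4 genes were spread widely within groups. Otc stood at 374, 116 and 306 CPM in peritumoral and at 203, 203 and 723 in untreated hepatocytes, and Gls2 at 311, 80.8 and 290.3 against 135, 138 and 508. In both genes peritumoral replicate 2 was the lowest of its group and untreated replicate 3 the highest of all 6, and the groups overlapped. The log2 fold changes were -0.50 ± 0.63 for Otc (edgeR adjusted p = 0.586) and -0.19 ± 0.68 for Gls2 (adjusted p = 0.858). Both turned in sign without untreated replicate 3, to 0.38 for Otc and 0.73 for Gls2. Without peritumoral replicate 2, the Xist-positive one, Otc was -0.07 and Gls2 turned to 0.28. None of these values passed.

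Ass1 stood at 1365, 869 and 1405 CPM in peritumoral and at 914, 693 and 1849 in untreated hepatocytes, with a log2 fold change of 0.07 ± 0.45 (edgeR adjusted p = 0.917). Asl stood at 425, 564 and 759 CPM against 311, 241 and 549.7, with a log2 fold change of 0.67 ± 0.37 (adjusted p = 0.223). Untreated replicate 3 was again the highest of its group in both, and both groups overlapped. Without it the values were 0.58 for Ass1 and 1.07 for Asl (edgeR adjusted p = 0.264 and 0.0615). Per length and within a library, Ass1 amounted to 95.9%, 81.9% and 108% of Cps1 in peritumoral hepatocytes and to 30.9%, 32.0% and 58.5% in untreated ones, with no overlap. Arg1 to Cps1 did not separate the groups, at 78.2%, 103% and 82.3% against 75.9%, 97.1% and 73.4%.

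Summed markers of macrophages, endothelial cells and stellate cells were higher in the peritumoral libraries. Those of erythroid cells were not, at 10.9 to 82.2 RPM against 80.1 to 144 in untreated hepatocytes. In untreated hepatocytes that sum was mostly Alas2, at 75.5, 76.5 and 177 CPM, against 68.1, 6.01 and 5.49 in peritumoral ones. Taken gene by gene, 4 of the 5 erythroid genes tested lay above 0, with a median log2 fold change of 0.91, and none passed. Of the macrophage list, Cd68 stood at 34.0, 56.0 and 69.6 CPM in peritumoral and at 72.1, 75.4 and 39.4 in untreated hepatocytes. The 14 macrophage markers summed to 2048 to 5696 RPM against 300.4 to 514 in untreated hepatocytes, the 12 endothelial markers to 1220 to 1900 against 221 to 383, and the 12 stellate cell and matrix markers to 1105 to 3383 against 77.8 to 177, with none at 0 in any of the 6 libraries. The 15 hepatocyte reference transcripts summed to 97751 to 177814 RPM in peritumoral and to 132575 to 141495 RPM in untreated hepatocytes. The 10 genes of the early stress response, which cell isolation can also raise, summed to 5185 to 7027 RPM against 1453 to 2242, and the 12 pericentral markers to 3998 to 7033 against 1679 to 2263, with no overlap. The 12 periportal markers overlapped, at 4172 to 7712 against 4852 to 11325 RPM. The part of these differences in the values of the 9 genes and of Glul was not tested. Per 1000 hepatocyte reference counts, Arg1 was 7.15, 13.4 and 5.36 in the peritumoral and 15.2, 14.9 and 11.9 in the untreated libraries, which overlap on this scale through peritumoral replicate 2, the library with the lowest hepatocyte sum. Glud1 was 6.97, 8.08 and 4.64 against 15.1, 14.0 and 8.70 on this scale, with no overlap.

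Genes of the neighbouring steps of nitrogen handling were read from lists of other enzymes and carriers. For comparison with their counts, 19% of all genes tested were higher and 10.2% lower in peritumoral hepatocytes. The shares were 21.3% and 20.5% at 24 h after TAA, and 25% and 23.9% at 48 h. The list for the capture of ammonia as glutamine moved in opposite directions in the 2 experiments. Of 7 genes tested, 5 were higher and none lower in peritumoral hepatocytes, with a median log2 fold change of 2.30. At 24 h after TAA 1 was higher and 5 lower, with a median of -2.65, and at 48 h 1 was higher and 6 lower, with a median of -2.21. Slc1a5 was higher in both experiments, by 3.30 ± 0.65 in peritumoral hepatocytes (edgeR adjusted p = 0.0131) and by 3.64 ± 0.33 at 48 h (adjusted p = 0.000452). Its peritumoral call was lost without untreated replicate 1. Of the 8 genes on this list, 5 (Glul, Oat, Rhbg, Slc1a2 and Slc13a3) also mark cells around the central vein.

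Glul, glutamine synthetase, stood at 875, 649 and 776 CPM in peritumoral hepatocytes and at 65.5, 83.4 and 92.2 in untreated ones, with a log2 fold change of 3.25 ± 0.24 (edgeR adjusted p = 0.00267). In livers it stood at 190.1 and 399.5 CPM in controls, 45.3 and 41.5 at 24 h and 66.9 and 60.8 at 48 h, with log2 fold changes of -2.76 ± 0.33 and -2.21 ± 0.32 (edgeR adjusted p = 0.00147 and 0.00208). Its groups did not overlap in any of these comparisons. Slc1a2, a glutamate transporter of the same cells, fell from 48.8 ± 29.4 to 0.464 ± 0.0718 CPM at 24 h (SD, n = 2; log2 fold change -6.69 ± 0.62, edgeR adjusted p = 0.000717). Oat, ornithine aminotransferase, fell at 24 h by 2.65 ± 0.30 on the log2 scale (edgeR adjusted p = 0.00121) and was higher in peritumoral hepatocytes by 1.74 ± 0.53 (adjusted p = 0.0497), a call lost without any 1 of 5 of the 6 libraries, with a value of 1.00 without peritumoral replicate 2.

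Of 14 genes tested that supply the cycle with bicarbonate, aspartate and carriers, 7 were lower and none higher in peritumoral hepatocytes. The shares of all genes lower and higher were 10.2% and 19%. Among the 7 were Slc25a13, the mitochondrial aspartate and glutamate carrier of liver (log2 fold change -0.94 ± 0.26, edgeR adjusted p = 0.0362), and Mdh2, mitochondrial malate dehydrogenase (-0.89 ± 0.18, adjusted p = 0.0135). When any 1 library was left out, 0 to 6 of this list were lower, and under the other settings 0 to 7. The call of Slc25a13 was lost in 4 of the 6 fits without 1 library and that of Mdh2 in 2. Hepatocyte scaling and an adjusted p under 0.01 ended both calls. Upper-quartile factors and a filter of 50 counts ended that of Slc25a13, and library totals alone that of Mdh2. After TAA 6 were lower and 2 higher at 24 h, and 5 lower and 2 higher at 48 h, where the other settings gave 2 to 7 lower and 1 to 6 higher. Car5a, the mitochondrial carbonic anhydrase that provides bicarbonate for Cps1, stood at 139 and 123 CPM in controls, 16.1 and 16.8 at 24 h and 20.1 and 23.4 at 48 h. It fell by 2.99 ± 0.14 on the log2 scale at 24 h (edgeR adjusted p = 0.000262) and by 2.59 ± 0.14 at 48 h (adjusted p = 0.000161). Aldh18a1, which makes the precursor of ornithine and proline, rose by 2.99 ± 0.49 and 3.33 ± 0.49 (edgeR adjusted p = 0.00418 and 0.00203).

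Enzymes that break down amino acids and so release ammonia were lower after TAA in 14 of 17 genes tested at each time and higher in none, with medians of -1.42 at 24 h and -1.28 at 48 h. Under the other settings 8 to 14 were lower at 24 h and 7 to 14 at 48 h, where up to 2 were higher. Amdhd1, an enzyme of histidine breakdown, fell by 2.52 ± 0.18 at 24 h and 2.56 ± 0.18 at 48 h on the log2 scale (edgeR adjusted p = 0.000482 and 0.000270). Prodh, proline dehydrogenase, fell by 2.99 ± 0.24 and 2.79 ± 0.24 (edgeR adjusted p = 0.000602 and 0.000380). In peritumoral hepatocytes 2 of the 17, Sdsl and Gldc, were lower and 1, Prodh, was higher, while 10.2% of all genes were lower and 19% higher. Prodh was higher by 1.30 ± 0.34 (edgeR adjusted p = 0.0324), a call lost in 3 of the 6 fits without 1 library. That of Gldc (edgeR adjusted p = 0.0479) was lost in 5 of these 6 fits, and also with RLE factors, upper-quartile factors, no filter, a filter of 50 counts and edgeR's legacy quasi-likelihood fit. Of the carriers of amino acids and urea, 2 of 9 tested were higher and 3 lower at 24 h, and 3 higher and 3 lower at 48 h. Over all genes 21.3% were higher and 20.5% lower at 24 h, and 25% and 23.9% at 48 h. The other settings with every library kept gave 1 to 5 higher and 3 to 4 lower of this list at 24 h, and 2 to 6 higher and 1 to 3 lower at 48 h. Slc38a4, a carrier of neutral and basic amino acids, fell by 2.29 ± 0.19 at 24 h (edgeR adjusted p = 0.000623), and Aqp9, a channel for glycerol and urea, was lower in all 3 comparisons with an untreated group (log2 fold changes -1.04, -1.33 and -1.25, edgeR adjusted p = 0.0148, 0.00129 and 0.00105). The peritumoral call of Aqp9 was lost without untreated replicate 1 or 2 (edgeR adjusted p = 0.0859 and 0.0568), and hepatocyte scaling ended this call and that at 48 h (adjusted p = 0.159 and 0.455).

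Enzymes that do related chemistry outside the liver's cycle were higher after TAA in 4 of 7 genes at 24 h and in 3 of 7 at 48 h. At 48 h 1, Umps, was lower. Over all genes 21.3% were higher at 24 h, and 25% higher and 23.9% lower at 48 h. The other settings with every library kept gave 3 to 6 higher at 24 h, and 2 to 7 higher and 0 to 1 lower at 48 h. Umps turned in sign with library totals and with hepatocyte scaling. Its call was also lost with upper-quartile factors, all 12 libraries in 1 fit and an adjusted p under 0.01. Ctps, which makes CTP with nitrogen from glutamine, rose by 2.69 ± 0.23 and 2.81 ± 0.23 (edgeR adjusted p = 0.000622 and 0.000329). Arg2, the mitochondrial arginase, was at most 0.401 CPM in control livers and 2.27 to 4.29 CPM in treated ones, and at most 0.291 in untreated and 4.15 to 5.32 in peritumoral hepatocytes. It passed as higher in all 3 comparisons (log2 fold changes 4.60, 3.38 and 3.37, edgeR adjusted p = 0.00267, 0.00370 and 0.00271), but 28.1% of its exon length overlaps opposite-strand genes. Cad, which makes carbamoyl phosphate for pyrimidines, was higher at 24 h by 1.76 ± 0.41 (edgeR adjusted p = 0.0156) and lower in peritumoral hepatocytes by a log2 fold change of -1.69 ± 0.40 (adjusted p = 0.0238), calls lost in 2 and 4 of the 6 fits without 1 library.

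Of the users of arginine and ornithine, 6 of 14 tested were higher and 4 lower at both times after TAA. The shares over all genes were 21.3% higher and 20.5% lower at 24 h, and 25% and 23.9% at 48 h. The other settings with every library kept gave 3 to 9 higher and 2 to 4 lower of this list at 24 h, and 5 to 10 higher and 1 to 4 lower at 48 h. Odc1, which turns ornithine into putrescine, the first polyamine, rose by 1.76 ± 0.15 at 24 h and 1.25 ± 0.15 at 48 h on the log2 scale (edgeR adjusted p = 0.000630 and 0.00103). Agmat, agmatinase, fell by 1.77 ± 0.14 and 1.65 ± 0.14 (edgeR adjusted p = 0.000602 and 0.000385). In peritumoral hepatocytes 2 of the 14 were higher and 2 lower, against 19% higher and 10.2% lower over all genes. Among them Gatm, the first enzyme of creatine synthesis, was higher by 2.77 ± 0.44 (edgeR adjusted p = 0.00700). Of 15 regulators of liver metabolism and their classic targets, 11 were lower at 24 h, 10 at 48 h and none in peritumoral hepatocytes, and none was higher in any of the 3. Under the other settings 4 to 12 were lower at 24 h and 2 to 11 at 48 h, and up to 1 and 5 were higher. Cebpa, a transcription factor known to drive urea cycle genes, fell by 1.10 ± 0.11 at 24 h and 1.48 ± 0.11 at 48 h (edgeR adjusted p = 0.000875 and 0.000293), and the glucagon receptor Gcgr by 1.44 ± 0.13 and 1.63 ± 0.13 (adjusted p = 0.000640 and 0.000329). In peritumoral hepatocytes Cebpa had a log2 fold change of -0.51 ± 0.29, which did not pass (edgeR adjusted p = 0.226).

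**Figure D4:**
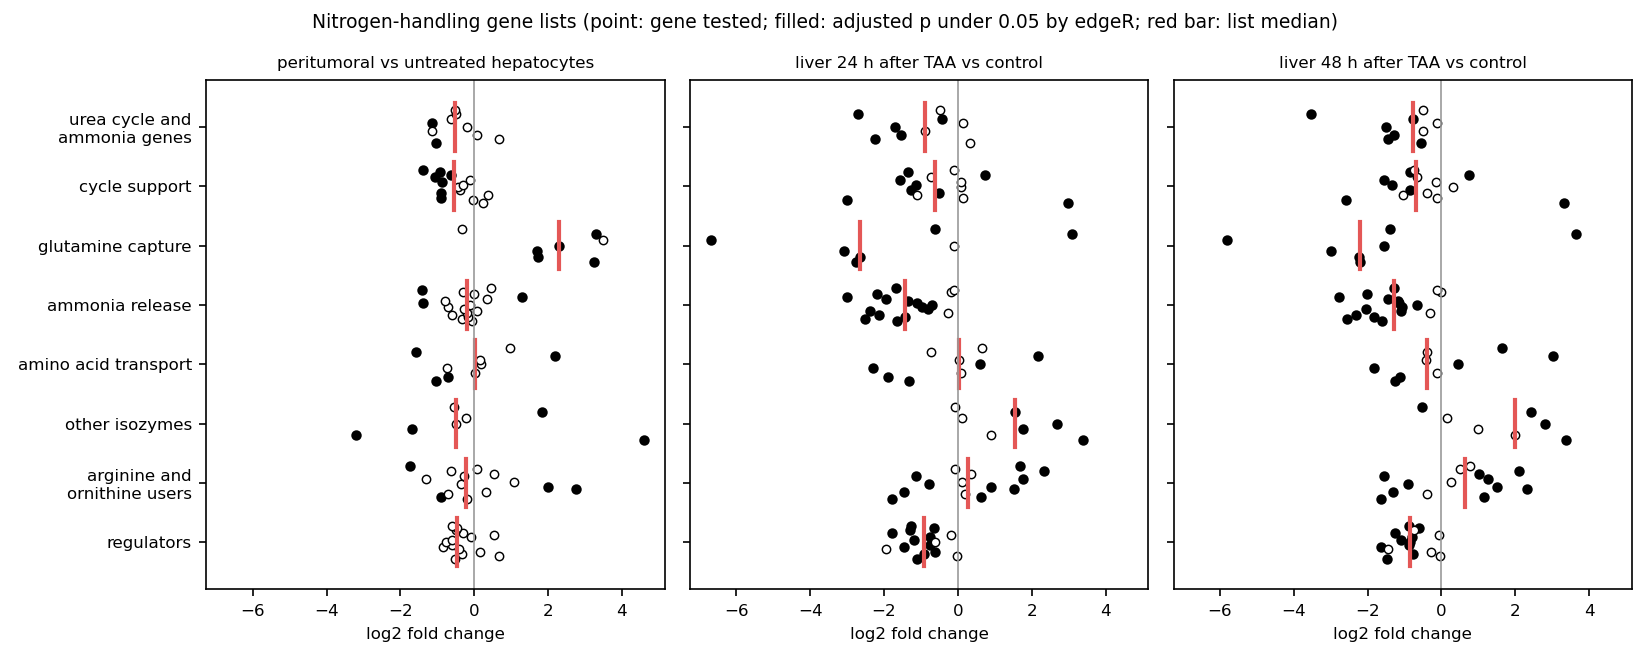
Log2 fold changes (horizontal axes) of the 9 genes and of 7 lists of neighbouring nitrogen-handling genes (rows) in peritumoral against untreated hepatocytes and in livers 24 h and 48 h after TAA against controls; each point is a gene tested, filled points passed edgeR's test at an adjusted p under 0.05, and red bars are list medians. The glutamine capture list has a median of 2.30 in peritumoral hepatocytes and of -2.65 and -2.21 after TAA.

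Among the 36 pairs of the 9 genes, likeness was measured as the root mean square difference between log2 levels over the 12 libraries, each gene centred within its experiment. Arg1 and Glud1 were the closest pair at 0.26, followed by Cps1 and Slc25a15 at 0.28 and Nags and Slc25a15 at 0.29. The farthest were Otc and Glud1 at 1.23, Otc and Arg1 at 1.18, and Asl and Glud1 at 1.05. Thus Otc stood in both of the 2 farthest pairs, and Slc25a15 in 2 of the closest 3. The genes outside the 9 whose profile was most like the mean of the 9 were Etfa, Txndc15, Abhd17c, Ndufa13 and Dcaf11, at 0.08 to 0.12, where the median of 7978 genes compared was 0.50. These distances describe 12 libraries that share depth and scaling, and carry no test.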

How the data were processed

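Every test started from the raw counts per gene that the authors deposited; their table of RPM values was not used. STAR, DESeq2 and the builds mm10 and GRCm38 are named per the submitters' processing notes. The sources used here do not give their versions, the annotation or the strand setting. The 9 genes, the lists and the tests were chosen with earlier results of these data known.

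The analysis used edgeR 4.0.16 in R 4.3.3, with TMM scaling, filterByExpr (at least 10 counts, total at least 15) and glmQLFit without the legacy option. P-values from the quasi-likelihood F test were two-sided and adjusted over all genes by Benjamini and Hochberg's method, with a threshold of 0.05. The 6 hepatocyte libraries (13442 genes) and the 6 liver libraries (13497 genes) were fitted apart, with TMM factors of 0.750 to 1.31. Sample titles gave groups and replicate numbers. Replicates of every group differed by more than sampling noise and none was treated as a duplicate. The procedure was tested on simulated data in which 200 genes were changed and the others were not. Counts were drawn with the dispersions that edgeR estimated here, so the tools were not compared on neutral ground. For the peritumoral comparison edgeR found 3% of 2-fold and 58% of 4-fold changes. For 24 h against control it found 34% and 82.2%, and for 48 h against control 30% and 78.6%. In every library 3 counts, the limit that a count of 0 allows for counting error only, are at most 0.311 RPM. RPKM used merged exon lengths from GENCODE M21 (GRCm38).

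Named were the 9 genes and, of each neighbouring list, up to 4 called genes per direction with the smallest p whose higher group averaged at least 5 CPM. Glul, Oat, Arg2, Cad, Slc25a13, Car5a, Got1, Gpt, Odc1, Cebpa and Hnf4a could be named whether or not they passed, and 1 further gene of that rule is not reported here. Other settings tried were RLE factors, upper-quartile factors, library totals alone, scaling to 15 hepatocyte transcripts, DESeq2 1.42.0, limma 3.58.1 on log2(CPM + 0.5) and log2(CPM + 0.1), no filter, a filter of 50 counts, 1 fit of all 12 libraries, a block for the replicate number, an adjusted p under 0.01, and leaving out each library. The legacy quasi-likelihood fit was chosen after seeing the data. Of the marker symbols, 1 (Adgre1) was not matched.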

Additional observations from a re-analysis of the deposited data

Results flagged for a closer look

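The effect of TAA on 4 genes differed between 24 h and 48 h by the test of the 2 times against each other, which cancels the shared controls. On the log2 scale, the effect at 48 h minus that at 24 h was -0.84 for Otc, 0.80 for Asl and -0.87 for Arg1. Ddo, D-aspartate oxidase, an enzyme of the list for ammonia release, was the only other gene of the 7 neighbouring lists that passed, with a difference of -1.23 (edgeR adjusted p = 0.0166). It stood at 30.0 and 32.9 CPM in controls, 17.6 and 18.0 at 24 h and 8.41 and 6.80 at 48 h. With 2 libraries at each time, all 4 calls were lost without any 1 of the 4 libraries at 24 h and 48 h.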

How the results depend on the processing

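Of the 9 genes, Otc at 24 h and 48 h and Asl at 24 h kept direction and call under all 19 alternatives, and Asl at 48 h under 18. The peritumoral count of 2 genes called became 0 under RLE, upper-quartile, library totals, hepatocyte scaling, no filter, the replicate block and an adjusted p under 0.01, and was 0 to 0 when any 1 library was left out. The counts of 5 and 6 genes called at 24 h and 48 h both became 2 with all 12 libraries in 1 fit, and without 1 library ran from 4 to 5 and from 4 to 6. The count of 3 between the times became 1 with library totals, 1 with no filter, 0 with all 12 libraries in 1 fit and 0 under an adjusted p under 0.01, and ran from 0 to 2 without 1 library. The cause was not tested. At the other settings run these counts stayed within 1.5 times, but their directions did not: with library totals 2 higher and 4 lower were called at 24 h and 1 higher and 3 lower at 48 h, and with hepatocyte scaling 2 higher and 4 lower at 24 h, 3 higher and 1 lower at 48 h, and 4 higher and 0 lower between the times. With 2 or 3 libraries per group, a lone library left in a group is assumed to vary like the others.

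Replicate numbers did not pair the hepatocytes (correlations of deviations of -0.24, 0.19 and 0.11 for numbers 1 to 3), nor the livers (0.02, -0.00 and 0.02). With the replicate number as a block, 0 of the 9 genes were called in peritumoral hepatocytes, 5 at 24 h, 6 at 48 h and 2 between the times.

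Among the values that turned, Nags at 24 h and 48 h and Arg1 at 48 h had been called lower. Scaling by library totals gave 0.066 for Gls2 in peritumoral hepatocytes, 0.079 for Nags and 0.020 for Slc25a15 at 24 h, 0.21 for Cps1, 0.17 for Arg1, 0.21 for Slc25a15 and 0.59 for Glud1 at 48 h, and 0.19 for Slc25a15 between the times. Hepatocyte scaling gave 0.13 for Nags and 0.069 for Slc25a15 at 24 h, 0.59 for Cps1, 0.55 for Arg1, 0.34 for Nags, 0.59 for Slc25a15 and 0.97 for Glud1 at 48 h, and 0.21 for Nags, 0.52 for Slc25a15 and 0.28 for Glud1 between the times. Upper-quartile factors gave 0.047 for Glud1 at 48 h. Between the times Slc25a15 was 0.017 with RLE, 0.010 with upper-quartile factors, 0.017 with DESeq2 and 0.015 with a filter of 50 counts. With 1 library left out, peritumoral values ran from -0.21 to 0.58 for Ass1, -0.52 to 0.73 for Gls2 and -0.84 to 0.38 for Otc, Glud1 at 48 h from -0.30 to 0.040, and between the times Ass1 from -0.10 to 0.54, Gls2 from -0.030 to 0.38 and Slc25a15 from -0.34 to 0.25.

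The median log2 fold change of all genes (peritumoral, 24 h, 48 h, between times) was -0.02, 0.02, -0.03 and 0.01 with TMM, 0.10, 0.17, 0.13 and 0.03 with upper-quartile factors, 0.23, 0.53, 0.68 and 0.21 with library totals, and 0.31, 0.58, 1.07 and 0.55 with hepatocyte scaling. The split of all calls, higher against lower, was 2560 to 1370, 2877 to 2767, 3372 to 3226 and 670 to 319 with TMM. With upper-quartile factors it was 2701 to 673, 3601 to 2133 and 3986 to 2403 in the first 3, with library totals 2593 to 205, 6127 to 1228, 7661 to 971 and 1281 to 181, and with hepatocyte scaling 2370 to 94, 6344 to 1116, 9915 to 510 and 5678 to 124. All calls numbered 3930, 5644, 6598 and 989. Peritumoral calls became 2464 with hepatocyte scaling, 2594 with a filter of 50, 5941 with all 12 libraries in 1 fit, 1308 under an adjusted p under 0.01, and 1359 and 1494 without untreated replicates 1 and 2. Calls at 24 h became 3255 with all 12 libraries, 2862 under an adjusted p under 0.01 and 2821 without replicate 1 of that time. Those at 48 h became 10425 with hepatocyte scaling and 4159 under an adjusted p under 0.01. Those between the times became 5802 with hepatocyte scaling, 1545 with DESeq2, 654 with no filter, 131 with all 12 libraries, 10 under an adjusted p under 0.01, and 0 to 1344 without 1 library.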
